A study of Mus musculus with 8 samples.

Results

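The genes described here are 7 surface and secreted markers of portal fibroblasts: Thy1, Cd34 and Entpd2, whose products sit on the cell surface, and Gas6, Dpt, Clec3b and Pi16, whose products are secreted or shed. They are 7 of 20144 genes with a named probe. They were chosen by name as known markers, at a time when earlier results of these data were known, and each was found on the arrays by the RefSeq accession of its probe. The 7 markers had 8 probes, 1 each apart from Cd34 with 2. The measurements come from 8 mouse microarrays in 1 color (Cy3), with 1 array per group. On 5 arrays the RNA came from liver cells that carried p75NTR and lacked CD45 and Ter119, sorted by flow cytometry after collagenase treatment. The earliest of these cells came from embryos at E11.5, where E stands for the embryonic day. E13.5 and E14.5 followed, then E17.5, and last the day after birth (P1). The adult HSC array held vitamin A-positive hepatic stellate cells of adult liver, the MEF array cultured embryonic skin fibroblasts, and the MSC array purified mesenchymal stem cells of adult bone marrow. Strain, genotype and the number of animals per array are not given in the sources used here, and no treatment of the animals or cultures is named. No group has a replicate, so a spread between animals cannot be given, and precision is limited by how few arrays there are.

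Portal fibroblasts are the fibroblasts of the connective tissue around the portal vein, hepatic artery and bile ducts, and hepatic stellate cells are the vitamin A-storing pericytes of the sinusoids. Thy1 and Entpd2 are used to tell portal fibroblasts from stellate cells, and Cd34, Dpt, Clec3b and Pi16 are used in several tissues to mark fibroblasts of the adventitia, the outer sheath of vessels. The sort used here selects on p75NTR, the nerve growth factor receptor encoded by Ngfr, which stellate cells carry. No array held cells sorted as portal fibroblasts. All 13 stellate cell markers on the list used here, among them Ngfr, Lrat, Colec10 and Colec11, were well above background on all 6 liver-derived arrays. Of these 13, 11 were above background in MEF and 7 in MSC. Of the 16521 genes above background on at least 1 array, 68.3% were so on all 8. That is a stricter count than one over the 6 liver-derived arrays, for which no share is given. On these bulk samples, more cells of a kind and more RNA per cell cannot be told apart.

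Promoter sequences were given for 5 of the 7 markers, namely Dpt, Cd34, Entpd2, Gas6 and Pi16. They are the 250 bases before the annotated start in the RefSeq table for GRCm38.p6. Those of Dpt and Pi16 are shown because no other pair of the 7 markers had levels that were as close in pattern over the 8 arrays, and that of Entpd2 because it was the marker whose level was higher at each successive stage. Dpt lies at chr1:164796413-164796662 on the plus strand, Pi16 at chr17:29318632-29318881 on the plus strand, and Entpd2 at chr2:25395624-25395873 on the plus strand. Each is written 5′ to 3′, ending at the base before the start, with matches to the searched motifs in capitals.
Dpt: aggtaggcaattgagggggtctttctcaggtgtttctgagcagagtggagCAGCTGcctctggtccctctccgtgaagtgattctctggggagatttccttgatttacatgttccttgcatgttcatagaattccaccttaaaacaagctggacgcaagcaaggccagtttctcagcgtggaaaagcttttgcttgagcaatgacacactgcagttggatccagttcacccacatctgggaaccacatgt
Pi16: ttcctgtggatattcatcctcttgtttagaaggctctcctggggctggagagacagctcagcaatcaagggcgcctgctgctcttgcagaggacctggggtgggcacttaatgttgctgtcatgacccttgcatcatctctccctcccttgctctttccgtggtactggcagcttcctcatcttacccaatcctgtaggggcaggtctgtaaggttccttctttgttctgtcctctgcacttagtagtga
Entpd2: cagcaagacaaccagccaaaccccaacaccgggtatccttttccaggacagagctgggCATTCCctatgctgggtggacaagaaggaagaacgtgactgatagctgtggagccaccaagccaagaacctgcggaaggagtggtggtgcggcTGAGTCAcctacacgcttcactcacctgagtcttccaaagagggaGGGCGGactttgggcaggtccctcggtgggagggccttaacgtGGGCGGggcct
The motifs searched on both strands were TATAAA (the TATA box), CATTCC (bound by TEAD factors), TGANTCA (bound by AP-1), CAGCTG (an E-box) and GGGCGG (a GC box). No match overlapped another. In the Dpt promoter a CAGCTG stood at -200 to -195, a motif that 13% of all 32851 promoters in the table held in a window of this length. In the Entpd2 promoter a CATTCC stood at -192 to -187 (12.6% of promoters) and a match to TGANTCA at -99 to -93 (6.75%). It also had GGGCGG at -54 to -49 and at -11 to -6 (32.7%). No searched motif was found in the windows of Pi16 and Cd34. The Gas6 window held 4 copies of GGGCGG on its reverse strand. TATAAA, which 12.4% of promoters held, was in none of these 5 windows. CG dinucleotides numbered 2 in Pi16, 3 in Dpt, 6 in Cd34, 9 in Entpd2 and 10 in Gas6, against a median of 6 over all promoters. These are matches of letters only, and no measurement of binding was made.

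A level is the log2 of a probe's signal over the 75th percentile of all signals on its array, so a level of 0 is a signal equal to that percentile and a step of 1 is a change by a factor of 2. A level counts as measured where the scanner software found it well above background. Where it did not, a fold change is a bound against the lowest level well above background on that array and is written "at least". With this flag, 58.8% to 64.5% of the 43020 non-control spots of an array were above background, none was saturated, and the 75th percentile ranged from 243 to 414. The 4 embryonic arrays shared slide 1, and P1, adult HSC, MEF and MSC shared slide 2. The slope of the spike-in controls, which software reports per array, was 0.849 on the E11.5 array and 0.922 to 0.933 on the others.

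Thy1, a GPI-anchored glycoprotein of fibroblasts, neurons and T cells, had a level of -2.41 at E11.5, 0.29 at E13.5, -0.19 at E14.5, 2.13 at E17.5 and 4.78 at P1. It was -4.98 in adult HSC, 5.40 in MEF and 1.64 in MSC. The MEF array was thus the highest and the adult HSC array the lowest of the 8, and the probe was above background on all of them. P1 was 147-fold over E11.5, and 868-fold over adult HSC. The adult HSC level came from 1 spot and lay near the lowest level well above background on that array, -5.94. The size of the latter fold thus depends on how background is removed. Of 12 leukocyte and T cell genes, 6 to 8 were above background on each liver-derived array, with a summed linear signal of 3.45 to 11.3 relative to the 75th percentile, lowest at E13.5 and highest at P1. Ptprc, which encodes CD45, and the T cell gene Cd3g were below background on all 6 of these arrays. In MEF, where Thy1 was highest, 10 of the 12 genes were above background, among them Cd3g (-3.30) and Ptprc (-4.40). The sum there was 15.9, the highest of the 8 arrays. In MSC 5 of the 12 were above background, with a sum of 5.21. The T cell gene Cd3e was above background on all 8 arrays (-1.62 to -1.01), and the myeloid gene Itgam likewise (1.32 to 3.25). The part of leukocytes in the Thy1 level was not tested.

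Cd34, a sialomucin of fibroblasts, endothelium and blood progenitors, had a level of 0.82 at E11.5, -0.30 at E13.5, 0.91 at E14.5, 3.84 at E17.5 and 5.26 at P1. It was -3.05 in adult HSC, 2.08 in MEF and 5.10 in MSC. The P1 and MSC arrays stood close together at the top, and adult HSC lay below every other array. P1 was 21.8-fold over E11.5 and 319-fold over adult HSC. The other probe of the gene read -4.60, -7.14, -4.62, -2.58 and -0.71 over the 5 stages in order. It read -5.83 in adult HSC, -4.32 in MEF and -0.58 in MSC. Of these values, those at E13.5 and in adult HSC were not well above background. Over the stages the probes moved the same way at each step. On this probe the difference of P1 and adult HSC is therefore a bound only. Endothelial cells also carry Cd34. Of 14 endothelial genes, 12 to 14 were above background on each liver-derived array. Their summed linear signal, relative to the 75th percentile, was 45.4 at E11.5, 46.9 at E13.5, 71.9 at E14.5, 102 at E17.5 and 43.3 at P1, and then 296 in adult HSC, 14.7 in MEF and 5.01 in MSC. Such a sum weighs the strongest genes most, and Plvap stood at 7.72 in adult HSC. The median level of the list was -0.94 at E11.5, -1.40 at P1 and -0.63 in adult HSC. From E14.5 to E17.5, where Cd34 was 7.64-fold higher, 12 of 13 comparable endothelial genes were higher as well, against 49.5% of all genes. From E11.5 to P1, 6 of 14 were higher, against 45.3% of all genes. Flt1, a VEGF receptor named after its values were seen, was at 0.41 at E11.5, -3.65 at E13.5, -2.25 at E14.5, 1.11 at E17.5, 2.22 at P1 and -0.83 in adult HSC. Other endothelial genes were lower at P1 than at E11.5. Among them, Cdh5 was at -0.69 at E11.5 and -3.32 at P1, Stab2 at 0.93 and -2.72, and Lyve1 at -1.19 and -3.57. Pecam1, an adhesion molecule of endothelium, lay between -4.34 and -3.09 on all 8 arrays. Of 7 hematopoietic stem cell genes, 7 were above background at each of the 5 stages. In adult HSC 4 were, in MEF 7 and in MSC 5. Their summed signal was 18.6 at E11.5, 16.4 at E13.5, 9.51 at E14.5, 12.7 at E17.5, 17.7 at P1 and 4.34 in adult HSC. Higher at P1 than at E11.5 were 2 of 7, against 45.3% of all genes. In adult HSC, 6 of 7 were at least 4-fold lower than at P1, against 12.5% of all genes. The part of endothelial cells or blood progenitors in the Cd34 level was not tested.

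Entpd2, an ectonucleotidase that hydrolyses extracellular ATP, had a level of -4.11 at E11.5, -2.01 at E13.5, -0.87 at E14.5, 0.74 at E17.5 and 2.19 at P1. It was -0.0015 in adult HSC, -1.93 in MEF and -6.31 in MSC. Entpd2 was the marker with a higher level at each of the 4 stage steps, as had 3.33% of the 15538 genes above background at a stage. P1 was 78.8-fold over E11.5 and 4.57-fold over adult HSC. Adult HSC thus lay high for Entpd2, between E17.5 and E14.5, while for Thy1 and Cd34 it was the lowest array.

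Gas6, a secreted vitamin K-dependent ligand of the receptors Axl, Tyro3 and Mertk, had a level of -1.24 at E11.5, 1.15 at E13.5, -0.07 at E14.5, 3.57 at E17.5 and 5.10 at P1. It was -1.43 in adult HSC, 4.78 in MEF and -3.62 in MSC. P1 and MEF were the highest arrays, and MSC the lowest. P1 was 81.1-fold over E11.5 and 92.9-fold over adult HSC.

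Dpt, dermatopontin, a small matrix protein that binds decorin, was not well above background at E11.5, E13.5 or E14.5, where its levels were -7.41, -8.03 and -7.72. It was measured at -1.02 at E17.5 and 1.46 at P1. It was -3.36 in MEF, and not well above background in adult HSC (-5.90) and MSC (-8.62). The Dpt probe is the marker probe with repeated spots, 10 per array, of which 9 were used on the E11.5 and MSC arrays. The spots at E17.5 ran from -1.20 to -0.90 and those at P1 from 1.39 to 1.61, so the arrays did not overlap. On the adult HSC array the spots ran from -6.96 to -5.45, with 4 of 10 above background. P1 was at least 113-fold over E11.5 and at least 165-fold over adult HSC. The spread of the spots (SD) was 0.067 at P1 and 0.080 at E17.5, and it measures the array, not the animals.

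Clec3b, tetranectin, a secreted C-type lectin that binds plasminogen, had a level of -4.86 at E11.5, -5.18 at E13.5, -4.92 at E14.5, -0.96 at E17.5 and 1.98 at P1. It was -4.92 in adult HSC, -4.42 in MEF and -4.45 in MSC. The 6 arrays other than E17.5 and P1 lay within a range of levels from -5.18 to -4.42. P1 was 114-fold over E11.5 and 120-fold over adult HSC.

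Pi16, a peptidase inhibitor of the CAP family, had a level of -3.35 at E11.5, -3.81 at E13.5, -4.06 at E14.5, 0.64 at E17.5 and 2.56 at P1. It was -1.80 in MEF and -5.96 in MSC, and not well above background in adult HSC (-6.99). P1 was 60.4-fold over E11.5 and at least 363-fold over adult HSC. For Pi16, as for Clec3b, the levels at E11.5, E13.5 and E14.5 lay within 1 unit of each other and the level at E17.5 stood above all 3. Dpt and Pi16 were the markers above background at P1 and not in adult HSC, as were 11.3% of genes.

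**Figure D1:**
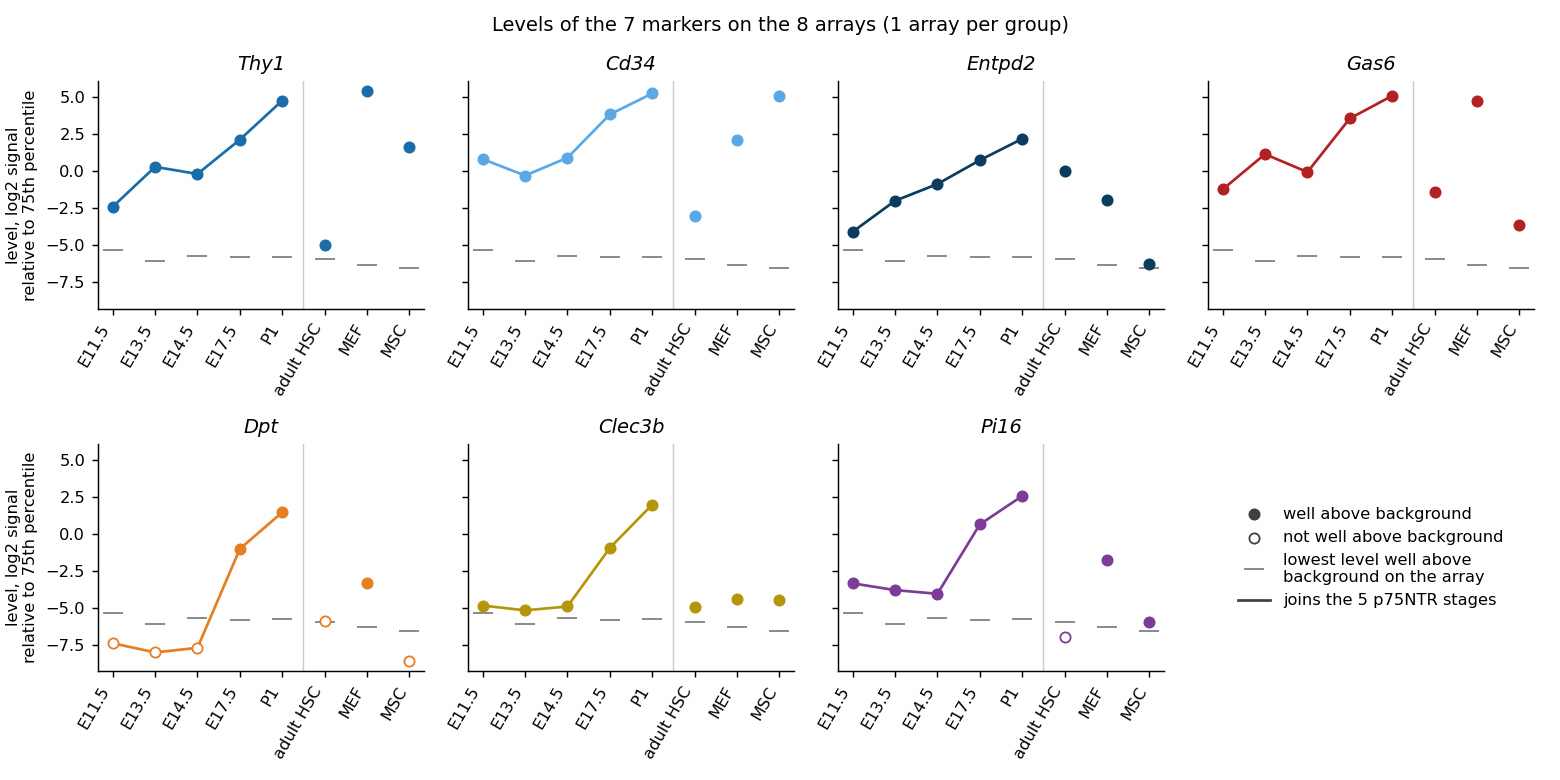
Levels of the 7 markers (log2 signal relative to the array's 75th percentile, vertical axis) on the 8 arrays (horizontal axis), 1 array per group, with open points where the probe was not well above background and grey dashes at the lowest level well above background on each array. The P1 array is the highest for 6 markers and MEF for Thy1, while adult HSC lies below P1 for all 7.

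**Figure D2:**
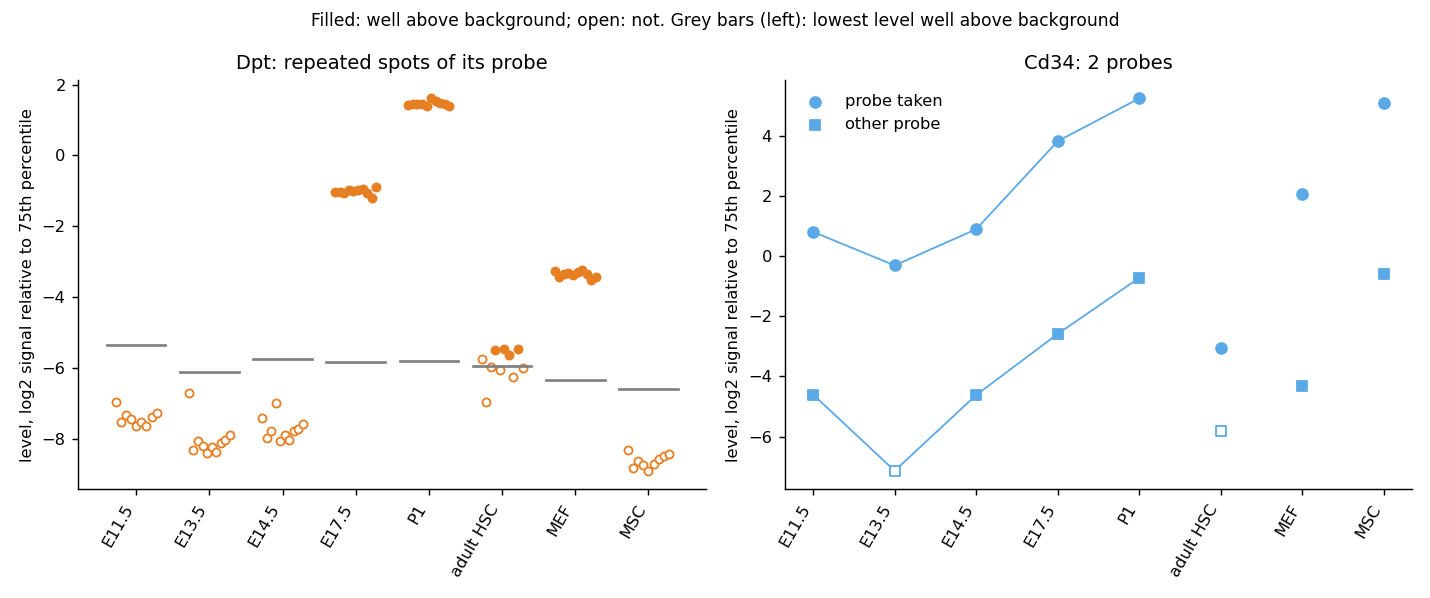
Left, the repeated spots of the Dpt probe on each array, with grey bars at the lowest level well above background; right, both probes of Cd34. Vertical axes give the level as log2 over the 75th percentile; open symbols are not well above background. The Dpt spots at E17.5, P1 and MEF stand clear of the bars, and both Cd34 probes are lower at E13.5 than at E11.5 and higher at each later stage.

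The highest of the 8 levels was at P1 for 6 of the 7 markers, against 10.9% of the 16521 genes above background on at least 1 array, and on MEF for Thy1, as for 10.8% of genes. Among the 5 stages alone the highest level was at P1 for 7 of 7, against 24.5% of genes. The lowest array was adult HSC for Thy1 and Cd34, MSC for Entpd2 and Gas6, and E13.5 for Clec3b. For Dpt, below background on 5 arrays, no lowest array can be given. For Pi16, adult HSC, below background, and MSC could not be ordered. Without replicates, neighbours in a marker's order cannot be judged by a spread between samples. Some neighbours differed by less than the median SD of repeated spots on either of their arrays (at most 0.088 on an array). These were, for Clec3b, MEF and MSC (0.027 apart), E11.5 and E14.5 (0.065) and E14.5 and adult HSC (0.0021). For Entpd2, MEF and E13.5 were 0.082 apart, against an SD of 0.071 on the MEF array and 0.070 on the E13.5 array. Spots near background can vary more. Those of Dpt, not well above background, had an SD of 0.49 at E13.5 and 0.46 in adult HSC. Clec3b at E13.5 lay 0.26 below adult HSC, so its lowest array is uncertain too, as is the order of its other low arrays.

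Onset was read from the first stage from which a probe stayed above background. By the scanner flag it was E17.5 for Dpt and E11.5 for the other 6 markers, and 5 markers were above background on all 8 arrays, as were 68.3% of genes. With a stricter line, a level at least 4-fold above the lowest level well above background, onset was E17.5 for Dpt, Clec3b and Pi16, E13.5 for Entpd2 and E11.5 for Thy1, Cd34 and Gas6. Pi16 was past that line at E13.5 but not at E14.5, so its later onset rests on the E14.5 array. At E11.5 it was only just past the line, with a level of -3.354 against a lowest level well above background of -5.358. Clec3b was past the line on 3 arrays in place of 8.

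The first step compared was E13.5 against E11.5. Thy1 (6.52-fold), Entpd2 (4.28-fold) and Gas6 (5.25-fold) were at least 4-fold higher at E13.5, which makes 3 of 6 comparable markers, against 2.14% of 14438 genes higher and 1.67% lower. Cd34 was 2.17-fold lower at E13.5. Dpt was below background at both stages and gave no fold. Between E13.5 and E14.5, 0 of 6 markers were 4-fold apart, against 2.86% of 14556 genes higher and 0.694% lower. Entpd2 was 2.20-fold and Cd34 2.31-fold higher at E14.5, and Gas6 was 2.32-fold lower.

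At the step from E14.5 to E17.5, both on slide 1, 7 of 7 markers were higher and 6 were at least 4-fold higher, while 49.5% of 14503 genes were higher, 1.74% at least 4-fold higher and 3.75% at least 4-fold lower. The folds were 26.0 for Pi16, at least 26.3 for Dpt, 15.6 for Clec3b, 12.4 for Gas6, 7.64 for Cd34 and 5.01 for Thy1, and Entpd2 was 3.06-fold higher. The median difference of the markers was 3.63 on the log2 scale, and that of all genes compared was -0.0085. From E17.5 to P1, 7 of 7 were higher again and 3 were at least 4-fold higher (Clec3b 7.65-fold, Thy1 6.27-fold and Dpt 5.58-fold), while 50.6% of 14835 genes were higher, 2.36% at least 4-fold higher and 0.708% at least 4-fold lower. Here the arrays lie on different slides, and the effect of slide cannot be told apart from that of stage.

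From E11.5 to P1, 7 of 7 markers were at least 4-fold higher, with folds as given above, against 7.36% of 14970 genes higher and 3.31% lower. These arrays also lie on different slides. With E17.5 in place of P1, within slide 1, 7 of 7 were at least 4-fold higher as well, against 5.84% of 14459 genes higher and 3.77% lower. Measured folds ran from 8.12 for Cd34 to 28.8 for Entpd2, and Dpt was at least 20.3-fold higher. With normexp background correction, another way to remove background, 5 of the folds were smaller by over 1.5 times. The log2 difference of P1 and E11.5 was then 6.25 for Thy1 in place of 7.20, 4.12 for Clec3b in place of 6.84, 4.29 for Entpd2 in place of 6.30 and 4.27 for Pi16 in place of 5.92. For Dpt it was 3.73 in place of the bound of 6.82.

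With limma, each of 15538 genes was fitted with a straight line over the 5 stages in order. Every marker had a positive slope and none passed at an adjusted p under 0.05, as did none of the 15538 genes. The slopes per stage step were 2.48 ± 0.62 (SE) for Dpt, 1.79 ± 0.43 for Clec3b, 1.63 ± 0.46 for Pi16, 1.62 ± 0.25 for Thy1, 1.53 ± 0.082 for Entpd2, 1.51 ± 0.31 for Gas6 and 1.30 ± 0.33 for Cd34. Dpt was not well above background at E11.5, E13.5 and E14.5, and it entered the fit through E17.5 and P1. The size of its slope thus rests on values that were not measured levels at the earlier stages. Limma's adjusted p was 0.0582 for Entpd2, which 147 genes shared as the lowest of the table, 0.0684 for Thy1 and 0.0808 for Gas6. It was 0.0969 for Clec3b, 0.100 for Dpt, 0.101 for Cd34 and 0.118 for Pi16. At an unadjusted p under 0.05, 7 of 7 had a positive slope, against 12.4% of genes with a positive and 15.7% with a negative one. The median slope was 1.62 over the markers and -0.03 over all genes. The arrays of this fit are no replicates of each other, so the error is the scatter of different stages around a line. With normexp, 4 slopes moved by more than 1.5 times, to 0.70 for Dpt, 0.77 for Clec3b, 0.94 for Pi16 and 0.96 for Entpd2. Adjusted p for Entpd2 was 0.0465 with quantile normalization, 0.0350 with genes above background at all 5 stages only and 0.0218 with a mean-variance trend and robust prior, and over all alternatives it ran from 0.0218 to 0.329. For Thy1 it was 0.0405 and 0.0318 under the last 2 of these (range 0.0318 to 0.238), and for Gas6 0.0474 under the last (range 0.0474 to 0.238).

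Without E11.5, the slope of Cd34 was 1.96, which is more than 1.5 times that of all 5 stages. Without P1, which leaves slide 1 alone, the slopes ran from 1.03 (Cd34) to 1.95 (Dpt), with 1.20 for Clec3b and 1.17 for Pi16.

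**Figure D3:**
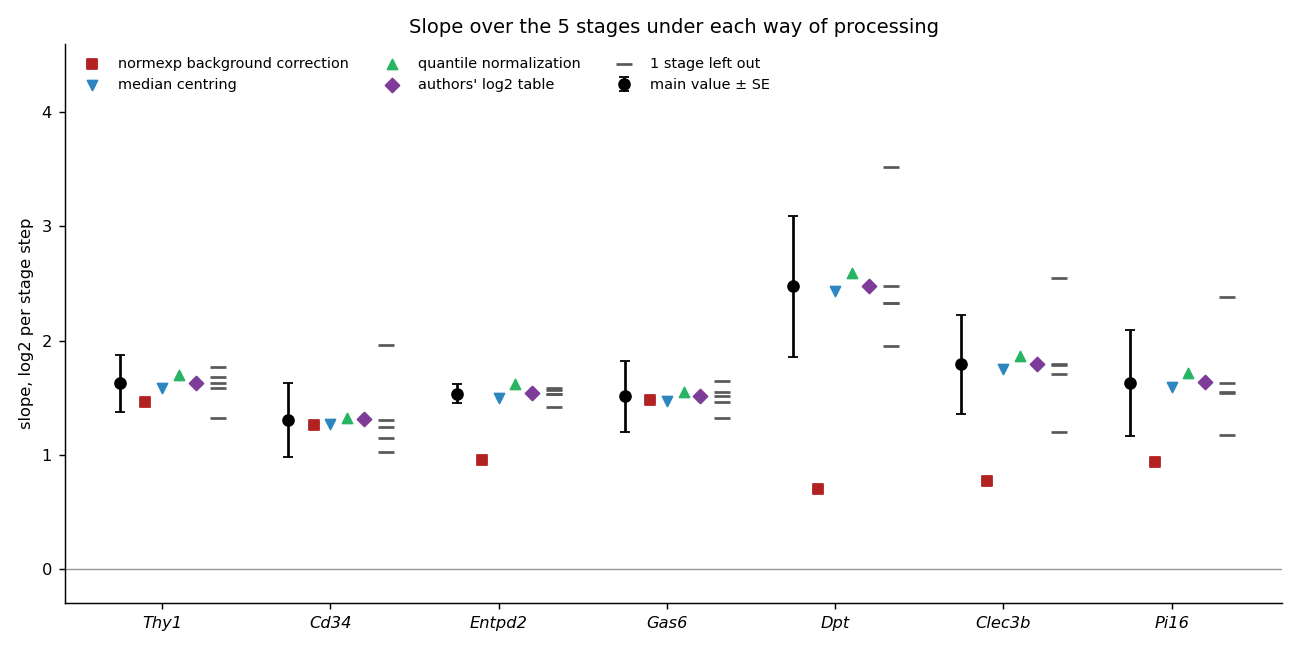
Slope of each marker over the 5 stages (log2 per stage step, vertical axis), with the main value ± SE of the limma fit in black, 4 other ways of processing in color and the slopes with 1 stage left out as grey dashes. All slopes lie above 0; normexp lies below the main value by the widest margin for Dpt, where it is 0.70 against 2.48.

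Adult HSC was set against P1, both on slide 2, though the sort (vitamin A against p75NTR) and the age cannot be told apart. All 7 markers were at least 4-fold lower in adult HSC, against 12.5% of 14980 genes lower and 4.62% higher. The differences on the log2 scale were -9.76 for Thy1, -8.32 for Cd34, -6.90 for Clec3b, -6.54 for Gas6 and -2.19 for Entpd2, with bounds of -8.51 for Pi16 and -7.36 for Dpt. Entpd2 was the marker nearest to the 4-fold line, and with median centring it was at -1.41. Median centring also moved the median of all genes from -0.06 to 0.73. Of genes past 4-fold, 26.9% were higher in adult HSC (692 higher, 1879 lower). This share was 54.9% with median centring (1562 and 1281), 39.1% with normexp (410 and 639) and 37.9% with quantile normalization (908 and 1487), and 6 to 7 of the markers were 4-fold lower and none higher under each. With normexp the differences were -7.24 for Thy1, -7.17 for Cd34, -5.12 for Pi16, -4.35 for Clec3b and -3.84 for Dpt. With E17.5 in place of P1, 6 of 7 markers were at least 4-fold lower in adult HSC, against 10.4% of 14544 genes lower and 4.34% higher, and Entpd2 was 1.67-fold lower. E17.5 and adult HSC lie on different slides.

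**Figure D4:**
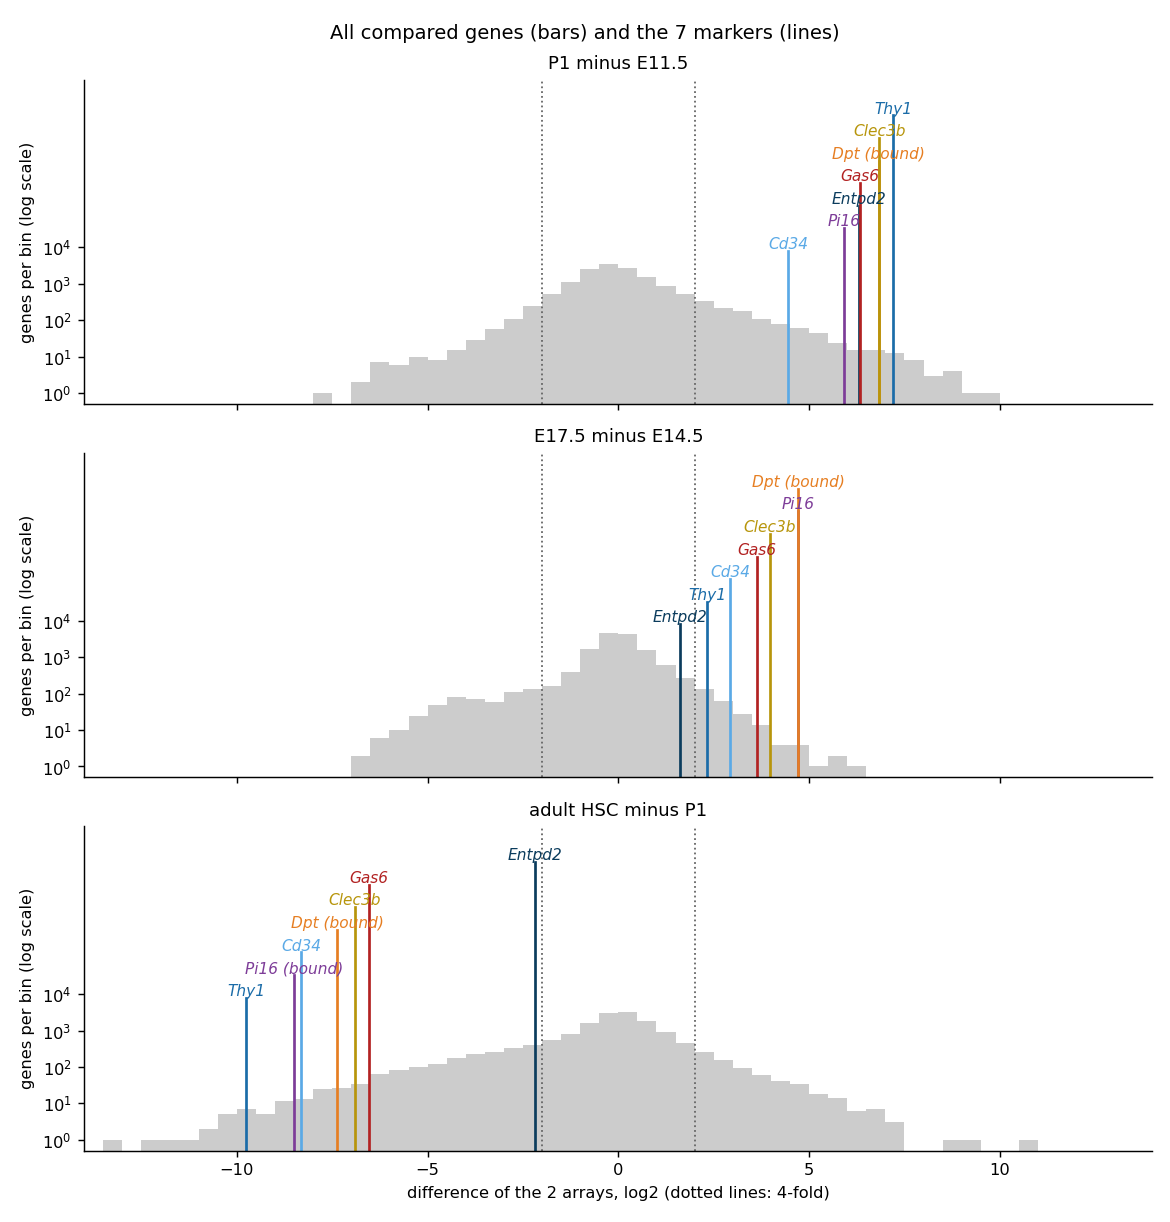
Differences between pairs of arrays (log2, horizontal axis) for all genes compared (grey bars, number of genes per bin of 0.5 on a log axis) and for the 7 markers (colored lines, whose heights only separate the names), with dotted lines at 4-fold and "bound" where 1 side was not well above background. The markers lie to the right of the 4-fold line from E11.5 to P1, all but Entpd2 do so from E14.5 to E17.5, and all lie to the left of it from P1 to adult HSC.

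Against MEF, 5 of 7 markers were at least 4-fold lower than at P1, against 8.02% of 15463 genes lower and 4.05% higher, from 9.10-fold for Cd34 to 84.5-fold for Clec3b. Thy1 was 1.54-fold higher in MEF than at P1, and Gas6 1.25-fold lower. In MSC, 6 of 7 were at least 4-fold lower than at P1, against 17.8% of 15392 genes lower and 5.83% higher. Measured folds ran from 8.85 for Thy1 to 423 for Gas6, and Dpt was at least 264-fold lower. Cd34 was 1.12-fold lower in MSC than at P1. The pair of cell types outside the liver thus differed in which marker stood near the P1 level. Between them, 5 of 7 markers were at least 4-fold lower in MSC and 1 higher, against 13% of 15242 genes lower and 2.03% higher. Thy1 was 13.6-fold and Gas6 339-fold lower in MSC than in MEF, and Cd34 was 8.11-fold higher.

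The 6 liver-derived arrays were also compared with MEF and MSC by limma, the contrast with more than 1 array on each side. The arrays on a side are no replicates of each other, so the error is the scatter of different stages or cell types. None of the 7 markers passed, at an adjusted or at an unadjusted p under 0.05, while 140 genes (0.847% of 16521) were higher and 121 (0.732%) lower at an adjusted p under 0.05. At an unadjusted p under 0.05, 10.7% of genes were higher and 8.93% lower. The groups overlapped for all 7 markers, while 12.8% of genes lay above MEF and MSC on every liver-derived array and 10.4% below. Entpd2 had a difference of 3.44 ± 1.72 (SE; limma adjusted p = 0.314), with liver-derived levels from -4.11 to 2.19. Thy1 was at -3.58 ± 2.38 (adjusted p = 0.428) and Cd34 at -2.34 ± 2.05 (adjusted p = 0.542). The other 4 lay between 0.60 (Gas6) and 1.38 (Pi16), with adjusted p from 0.734 to 0.911. Of the genes that passed, 53.6% stood higher on the liver-derived arrays, and with normexp 70.6% did (36 higher, 15 lower). With median centring 44.1% did (108 and 137) and with quantile normalization 48.5% (146 and 155), so that the larger share was then on the lower side.

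The pattern over the 8 arrays was compared between genes by Pearson's r on levels raised to the array's lowest level above background, as a description. Arrays share the platform and scaling, and E17.5 and P1 stand high for all 7 markers. Dpt and Pi16 (r = 0.968) and Dpt and Clec3b (0.952) were the closest pairs of markers, and Cd34 and Entpd2 (-0.052) the least alike. Among 6484 or 6485 other genes with a range of at least 2 on the log2 scale, Thy1 was closest to Kdelr3 (0.982), Serpinb1a (0.977) and Colec12 (0.971). Cd34 was closest to Fstl3 (0.966), Atp10a (0.929) and Cfap69 (0.924). Entpd2 was closest to Cish (0.986), Ccdc80 (0.970) and Nid1 (0.970). Gas6 was closest to Arsi (0.984), S100b (0.981) and Copz2 (0.976). Dpt was closest to Ntrk2 (0.981), Bmp6 (0.972) and Pi16 (0.968). Pi16 was closest to Tppp3 (0.983), Dpep1 (0.981) and Ntrk2 (0.970). For Clec3b the closest were Ins2 (0.986), Ins1 (0.979) and Pyy (0.972), the genes of insulin and peptide YY. Their levels at E14.5, E17.5 and P1 were -3.70, -1.38 and 1.51 for Ins2 and -4.27, -1.60 and 1.35 for Pyy.

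Most listed genes of the pancreas rose like the markers. From E11.5 to P1, 8 of 9 comparable acinar and 7 of 9 comparable islet genes were higher, against 45.3% of all genes. Lower at P1 were Pnlip (-3.88 at E11.5, below background at P1), Gcg (-0.03 and -2.25) and Nkx6-1 (-2.22 and -3.58). On a list of 10 acinar genes, the summed level, that is, the sum of linear signals relative to the 75th percentile over genes above background, ranged from 0.495 to 0.790 before E17.5 and was 3.32 at E17.5 and 63.9 on the P1 array. On the other arrays it was 0.334 in adult HSC, 0.307 in MEF and 0.272 in MSC. On a list of 10 islet genes, chosen after the values of Clec3b's nearest genes were seen, it was 1.40 at E11.5, 0.252 at E13.5, 0.300 at E14.5, 2.65 at E17.5 and 14.9 at P1. It was 0.104 in adult HSC, 0.480 in MEF and 0.155 in MSC. At P1, 8 of 10 acinar and 9 of 10 islet genes were above background, and 8 of 8 and 9 of 9 comparable genes were higher there than at E17.5, against 50.6% of all genes. Amy2a5, pancreatic amylase, had a level of -5.18 at E14.5, 0.24 at E17.5 and 4.32 at P1. Among transcription factors on these lists, Ptf1a, of the acinar lineage, and Pdx1, of the pancreatic epithelium and beta cells, were below background on all 8 arrays. Nkx6-1, of beta cells, was above background on all 8 (-4.98 to -2.05). The part of pancreatic cells or RNA in the marker levels at E17.5 and P1 was not tested.

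Smooth muscle and stellate markers were summed in the same way. The sum of 7 smooth muscle genes was 61.2 at E11.5, 34.8 at E13.5, 104 at E14.5, 215 at E17.5 and 346 at P1, and then 42.5 in adult HSC, 421 in MEF and 392 in MSC. Like the portal markers, 7 of 7 were higher at E17.5 than at E14.5 (49.5% of all genes) and 7 of 7 higher at P1 than at E17.5 (50.6%). At the first of these steps 0 of 7 were at least 4-fold higher, against 6 of 7 portal markers and 1.74% of all genes. At the second 1 of 7 was, against 3 of 7 portal markers and 2.36% of all genes. The sum of the 13 stellate genes was 125 at E11.5, 112 at E13.5, 252 at E14.5, 462 at E17.5 and 296 at P1. It was 1526 in adult HSC, 34.7 in MEF and 11.9 in MSC. From E11.5 to P1, 11 of 13 stellate genes were higher, against 7 of 7 portal markers and 45.3% of all genes. At the step from E14.5 to E17.5, 13 of 13 were higher and 0 at least 4-fold higher. From E17.5 to P1, 3 of 13 stellate genes were higher, against 7 of 7 portal markers and 50.6% of all genes. From P1 to adult HSC 13 of 13 stellate genes were higher, against 0 of 7 portal markers and 47.4% of all genes. The part of either list's cells in the marker levels was not tested. Other lists also moved at these steps. The sum of 7 cholangiocyte genes was 1.53 at E11.5, 1.21 at E13.5, 0.299 at E14.5, 0.454 at E17.5, 2.31 at P1 and 0.0249 in adult HSC, with 7 of 7 higher at P1 than at E17.5 and 7 of 7 lower in adult HSC than at P1. Epcam, an epithelial gene on this list, was above background on the P1 array alone. Krt19 stands on both the cholangiocyte and the mesothelial list. The sum of 7 Schwann and neural crest genes was 3.05 at E11.5, 0.538 at E13.5, 0.402 at E14.5, 0.970 at E17.5, 2.56 at P1 and 0.189 in adult HSC, with 6 of 6 comparable genes higher at P1 than at E17.5 and 6 of 6 lower in adult HSC. Mesothelial genes summed to 7.68 at E11.5, 12.7 at E13.5, 5.23 at E14.5, 3.00 at E17.5, 6.61 at P1 and 0.130 in adult HSC. Of these genes, 6 of 6 comparable were higher at P1 than at E17.5 and 6 of 6 lower in adult HSC than at P1. Hepatocyte genes summed to 9.63 at E11.5, 402 at E13.5, 1190 at E14.5, 144 at E17.5, 84.6 at P1 and 53.3 in adult HSC. The part of these cells in the marker levels was not tested.

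**Figure D5:**
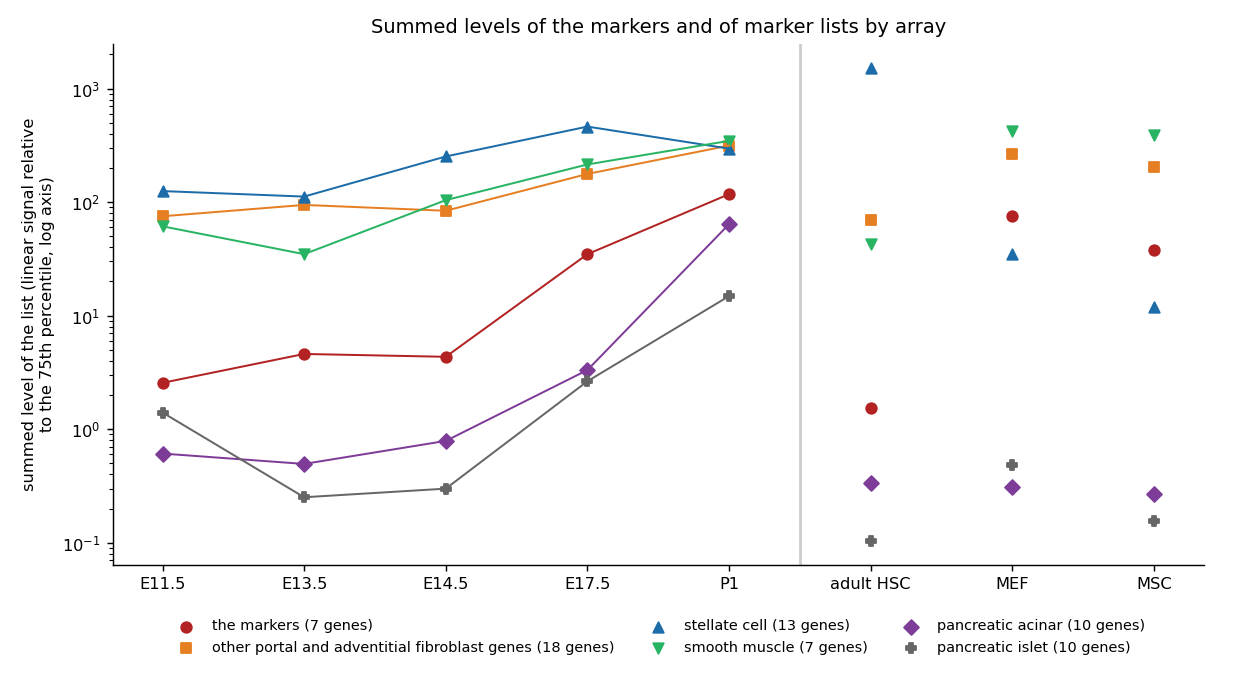
Summed levels (linear signal relative to the array's 75th percentile, log axis) of the 7 markers and of 5 other gene lists on the 8 arrays, with lines joining the 5 stages. The markers' sum is 4.34 at E14.5, 34.8 at E17.5, 117 at P1 and 1.55 in adult HSC; the stellate list has its highest value in adult HSC, and Des stands on both the stellate and the smooth muscle list.

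Of 18 other portal and adventitial fibroblast genes, 18 were higher at P1 than at E11.5 and 11 at least 4-fold higher, against 45.3% and 7.36% of all genes. Their median log2 difference was 2.52, against -0.10 over all genes. For the slope, 0 of 18 passed at limma's adjusted p under 0.05, and 8 had a positive and 0 a negative slope at an unadjusted p under 0.05 (median slope 0.64). Mfap5, a microfibril protein of elastic fibers, was at -1.79 at E11.5, -1.34 at E14.5, 1.60 at E17.5 and 4.32 at P1, and below background in adult HSC. Pdpn, podoplanin, a surface mucin of fibroblasts and lymphatic endothelium, was at -0.54, -1.98, 0.11 and 1.61 at the same stages. It too was below background in adult HSC, and was 3.94 in MEF and 3.26 in MSC. Igfbp6, a secreted binding protein of IGF-II, was at -1.80, -1.15, 0.36 and 3.44 at these stages, -4.84 in adult HSC and 5.94 in MSC, its highest array. From P1 to adult HSC, 4 of 18 were higher, against 47.4% of all genes, and 14 were lower, 12 of them at least 4-fold, against 12.5% of all genes. The 4 that were higher were Emilin1, Il33, Ly6a and Efemp1, chosen for mention after their values were seen, and Efemp1, a fibulin, was at -1.72 at P1 and 4.72 in adult HSC. Mfap4, another microfibril protein, was at 6.75 at P1, -5.35 in adult HSC, 4.80 in MEF and -6.16 in MSC.

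The receptors of Gas6 differed in course. Axl lay between 2.88 (adult HSC) and 4.66 (MSC) on all 8 arrays, with a slope of 0.31 ± 0.076 (SE; limma adjusted p = 0.0980). Tyro3 lay between 2.36 and 2.91 at the 5 stages and at 0.29 in adult HSC. Mertk was at -3.28 at E11.5, -2.87 at E13.5, -2.61 at E14.5, -2.35 at E17.5, -1.36 at P1 and 0.41 in adult HSC, and below background in MSC, where Gas6 was lowest too. Its slope was 0.44 ± 0.083 (SE; limma adjusted p = 0.0776), with a higher level at each of the 4 stage steps. Pros1, protein S, the homolog of Gas6, was at -0.77 at E11.5, 2.05 at E17.5 and 3.22 in adult HSC. Hence from P1 to adult HSC, where Gas6 differed by -6.54, Mertk and Pros1 were higher and Axl and Tyro3 lower, with Tyro3 alone of the 4 past 4-fold.

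Among 12 ectonucleotidases and P2Y receptors of extracellular nucleotides, Entpd1 was above background on the P1 and MEF arrays and Entpd3 on the P1 array, the other cell-surface relatives of Entpd2 on the list. Nt5e, the ectonucleotidase CD73, which makes adenosine, was below background at E11.5 and at -0.63 at E14.5, -1.07 at P1 and 3.64 in adult HSC. P2ry14, a receptor for UDP-sugars, was at -0.82 at E14.5, -1.39 at P1 and 3.71 in adult HSC. P2ry1, a receptor for ADP, was at -1.49, -1.07 and 1.86 on the same arrays, and P2ry6, a receptor for UDP, at -2.57, -1.09 and -5.01. Adult HSC was thus the highest array for 3 of these 4 genes, chosen for their range, and the lowest measured array for P2ry6. From P1 to adult HSC, 6 of these 12 genes were higher, against 47.4% of all genes, and 6 lower. Of them 4 were at least 4-fold higher and 2 at least 4-fold lower, against 4.62% and 12.5% of all genes. Of the 4 genes listed with Cd34, Podxl was above background at E11.5 and E13.5, Emcn at E11.5 and P1, and Glycam1 on no array. Podxl2, a sialomucin of the CD34 family, was at -0.63 at E11.5, 0.75 at P1 and -2.06 in adult HSC.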

How the data were processed

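RNA of 8 samples was hybridised to 1-color Agilent arrays, per the labels' protocols. The intensity values were made with Agilent Feature Extraction 11.5.1.1, per the file headers, as background-subtracted spot signals with no scaling between arrays. The log2 values of the authors' deposited table follow the same signals divided by the 75th percentile and were used as an alternative; after an offset of -0.150 to -0.103, 93.2% to 100% of probes matched within 0.02.

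Levels were computed as log2 processed signal minus the array's 75th percentile, outlier spots were left out and spots of a probe averaged. Probes were named by RefSeq accession (26581 of 39429), and the probe with the highest mean stood for a gene. Models were fitted by limma 3.58.1 (R 4.3.3), and p-values were adjusted by Benjamini-Hochberg over all genes above background on at least 1 array compared, and were tested on simulated data. Between single arrays no test was run, and genes past a 4-fold difference were counted. Beyond the 7 markers, genes were named as the 3 closest in pattern to each marker, (among genes above background on at least 4 arrays, with a range of at least 2 log2 units), the Gas6 receptors, and as up to 4 of each list with the widest range; other genes, such as defining markers of other cell types, were named after their values were seen. The markers and lists were chosen with earlier results of these data known. Alternatives were normexp (offset 50), median and quantile normalization, 2 filters, probe means, the authors' table, a floor, arrays left out, slides, and a variance trend. Promoter sequences are RefSeq's (GRCm38.p6), a build other than that of the array design, so no probe positions were used.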

Additional observations from a re-analysis of the deposited data

How the results depend on the processing

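No paired analysis was possible because each group has 1 array. All 7 markers kept a positive slope and their direction in both pairs of arrays under every alternative that gave them a value. For the slope, 0 genes passed in the main setting, and 112 did with quantile normalization, 657 with genes above background at all 5 stages, and 1134 with the variance trend and robust prior, of which 1, 2 and 3 were markers; with a stage left out, 0 to 0 passed. The cause was not tested, beyond the fewer genes tested under the filter. Genes that differed between liver-derived cells and MEF and MSC numbered 261, against 51 with normexp, 160 with genes above background on all 8 arrays, 524 with the 5 p75NTR arrays alone on the liver side (that is, without adult HSC), 75 with slide as a block and 0 on slide 2 alone, and 83 to 1283 with an array left out, the highest without MEF; 0 markers passed under any of these. Dpt, Gas6 and Pi16 changed sign there under 2, 3 and 1 of the alternatives without passing in any. Genes at least 4-fold apart numbered 596 with normexp in place of 1598 between P1 and E11.5. Between adult HSC and P1 they numbered 1049 with normexp and 1496 with genes above background on both arrays, in place of 2571. Of slopes at an unadjusted p under 0.05, 44.2% were positive, and 73.3% with normexp (503 and 183). The measured difference with no bound and E17.5 in place of P1 were chosen after seeing the data. Signals near background limit Dpt, Clec3b and Pi16 before E17.5, and Entpd2 at E11.5. They likewise limit Thy1, Clec3b, Dpt and Pi16 in adult HSC, Clec3b in MEF, and Entpd2, Dpt and Pi16 in MSC. There the method of background removal sets the size of a fold.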
